A study of Mus musculus with 5 samples.

Results

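The genes of the mitochondrial ribosome were followed in LPS-stimulated bone marrow-derived macrophages (BMMs) cultured with or without semaphorin 3G (Sema3G), a secreted guidance protein. All rows of the gene table whose symbol begins with Mrpl or Mrps and a digit were taken, which gave 77 of 24419 rows, 48 with an Mrpl symbol and 29 with an Mrps symbol, named for the large and the small subunit (the exceptions Mrps18a, Mrps30 and Mrps36 are described with their values). Bone marrow cells of C57BL/6 mice (C57BL6/J in the design text) were grown with 50 ng/ml M-CSF for 5 days, and adherent cells were activated with 100 ng/ml LPS. They then received PBS (n = 2) or 100 ng/ml recombinant Sema3G (n = 3) for 18 h, so both groups share M-CSF and LPS. The recombinant protein carried an Fc tag and was purified from the supernatant of a transfected human embryonic kidney cell line, while the control received PBS alone. PBS is the treatment label of the control samples, whose titles read no treatment. The sources used here state neither the age of the mice nor whether the samples came from separate mice or cultures. The p-values therefore measure the spread between these samples, which may be technical.

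Mitochondria have their own ribosome, which translates the few messenger RNAs of mitochondrial DNA into membrane subunits of the respiratory chain. Its RNAs are made inside the organelle, but its proteins are encoded in the nucleus, made in the cytosol and imported. Some of these proteins have a counterpart in the bacterial ribosome, and others are particular to mitochondria. In macrophages LPS is known to turn metabolism from respiration towards glycolysis. The transcription factors NRF1, GABP (an ETS factor, also called NRF2) and YY1 are known to bind the promoters of many nuclear genes for mitochondrial proteins.

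The promoters of the members carried the core letters of these factors more often than promoters in general. In RefSeq windows from 250 bases before to 50 bases after the start (GRCm38.p6), 68 of the 77 members had 74 promoters, and the whole set had 32851. The ETS core CCGGAAG, searched on both strands like the others, stood in 33.8% of member promoters and 8.86% of all. The YY1 core AAGATGGC stood in 16.2% against 2.75%, and the NRF1 core GCATGCGC in 10.8% against 2.71%. At least 1 of the 3 was present in 50% of member promoters and 13.3% of all. None of these 3 cores contains another. The GC box GGGCGG was found in 52.7% against 35.7%, and the short CCAAT box in 40.5% against 37.4%, closer to the general share. A match describes letters in a window and shows no binding.

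Shown here are the 100 bases before the RefSeq start for the 4 members that are both prominent below (highest level, or lower in Sema3G-stimulated BMMs) and carry such a core within that stretch. All 4 lie on the plus strand, and capitals mark the ETS core (Mrps26, Mrpl52 and Mrpl34) or the NRF1 core (Mrpl33), on either strand. The positions are chr2:130563657-130563756 for Mrps26, chr14:54426809-54426908 for Mrpl52, chr8:71464826-71464925 for Mrpl34 and chr5:31613851-31613950 for Mrpl33.
Mrps26: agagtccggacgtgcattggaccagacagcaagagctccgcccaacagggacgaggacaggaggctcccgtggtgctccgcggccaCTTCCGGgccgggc
Mrpl52: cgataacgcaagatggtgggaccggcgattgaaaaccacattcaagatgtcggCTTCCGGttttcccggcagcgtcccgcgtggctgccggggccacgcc
Mrpl34: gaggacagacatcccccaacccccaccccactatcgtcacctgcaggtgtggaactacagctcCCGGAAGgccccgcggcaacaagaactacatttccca
Mrpl33: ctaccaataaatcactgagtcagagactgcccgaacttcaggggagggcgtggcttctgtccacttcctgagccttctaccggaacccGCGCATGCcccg

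The 5 libraries held 1798469 to 2215855 unique molecular identifiers (UMIs, each standing for 1 captured RNA end), and 1283029 to 1487137 of them fell on listed genes. The share on listed genes was 77.6% and 75.6% in the PBS libraries and 71.3%, 67.1% and 65.9% in Sema3G libraries 1, 2 and 3. Rn45s, the ribosomal RNA precursor, took 1.01% and 3.19% of the PBS totals and 6.31%, 7.40% and 7.88% of the Sema3G totals. Sema3G libraries 2 and 3 were the most alike pair (chi-square divided by its degrees of freedom, 1.77 over 7918 genes, where other pairs had 6.57 to 29.6). They still differed by more than sampling noise and were counted separately. Between the PBS libraries the value was 11.4, beside 12.2 to 29.6 for pairs across the groups. All 8 macrophage markers passed the filter on low values, with summed levels of 9761 to 12570 CPM (UMIs of a gene scaled to the library total) in the PBS libraries and 8860 to 9518 CPM in the Sema3G libraries. Of the defining markers Csf1r had at least 3451 CPM and Lyz2 at least 2527 CPM in every library, while Mertk had at most 5 UMIs and was at 0 in PBS library 2. Among other cell types, none of the 5 T and B cell markers and none of the 4 dendritic cell markers passed the filter, with at most 5 and 1 UMIs per library. Of the neutrophil markers S100a8 and S100a9 passed (summed level 115 to 167 CPM with PBS and 103 to 132 CPM with Sema3G, with Elane and Ngp at 0 throughout), and of the stromal markers Col1a1, Col1a2 and Pecam1 (18.2 to 42.9 and 13.5 to 34.5 CPM). No marker of any list passed the test.

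Mitochondrial ribosomal protein genes were expressed at moderate levels in LPS-stimulated BMMs. A filter of a mean of at least 1 CPM over the 5 libraries kept 74 of the 77 members and 10088 of all genes. The median level of the tested members was 18.9 CPM, beside 16.9 CPM over all tested genes, and 59 members had a mean of at least 10 CPM. Since 1 end is captured per RNA, these CPM values are not scaled by gene length, and the levels of different genes are compared on that scale. The 3 members that did not pass were close to absent at this depth, where 3 counts equal 1.35 to 1.67 CPM. Mrpl23, a homologue of a bacterial large-subunit protein, had 0 and 1 UMIs in PBS libraries 1 and 2, beside 2, 2 and 3 in the Sema3G libraries. Mrps36, now regarded as a part of the alpha-ketoglutarate dehydrogenase complex, had 2 and 1 UMIs against 0, 0 and 1. Mrps18b had 1 UMI in all, in Sema3G library 1. Mrpl23 has a near-identical copy of its last 300 bases elsewhere (Mrpl23-ps1), and an exon of the antisense gene Gm16279 lies within the last 500 bases of Mrps18b, so that the counts of both are uncertain.

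**Figure D1:**
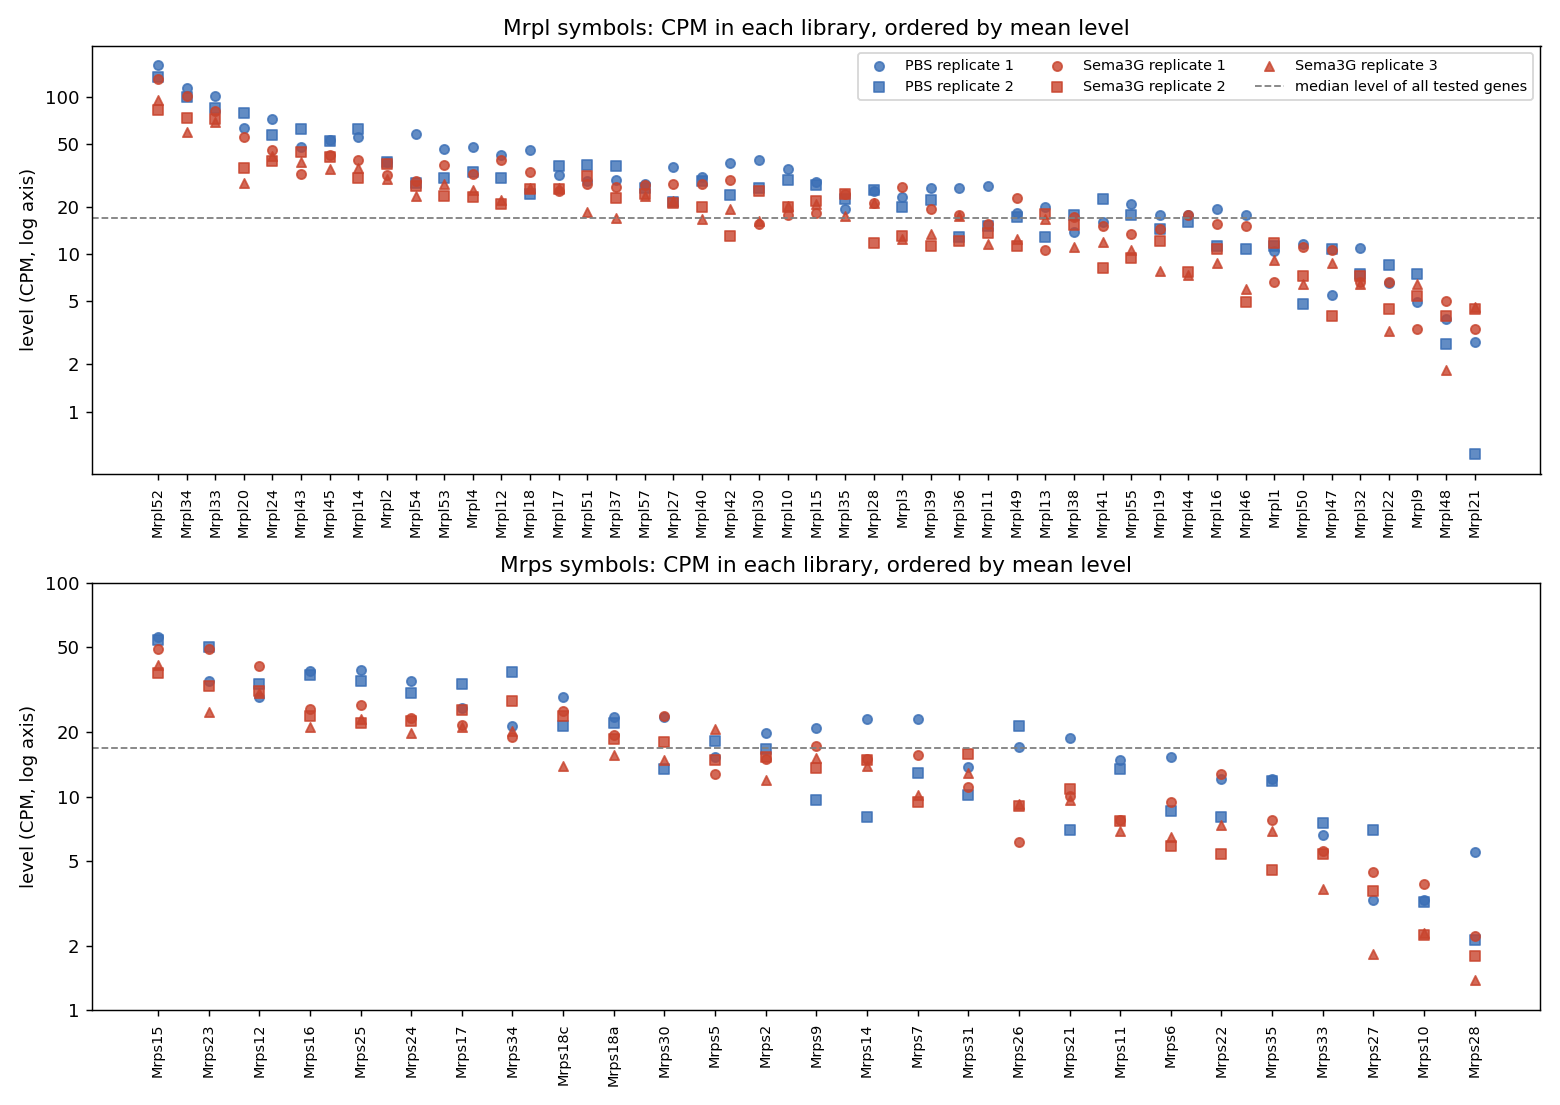
Level of each of the 74 tested members in each of the 5 libraries (y axis: CPM on a log axis; x axis: genes ordered by their mean over the libraries), with Mrpl symbols above and Mrps symbols below. The dashed line is the median level of all tested genes, 16.9 CPM. Levels run from 119 CPM (Mrpl52) to 2.61 CPM (Mrps28) in the mean, and PBS points tend to lie at the upper edge of each column.

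The members with the highest levels belonged to both subunits. Mrpl52, a mitochondria-specific protein of the large subunit, had 158 and 132 CPM with PBS and 128, 82.6 and 94.5 CPM with Sema3G. Its mean was above that of 91.5% of all tested genes. Mrpl34, the homologue of a small bacterial large-subunit protein, had 113 and 99.6 CPM with PBS and 101, 73.6 and 59.9 CPM with Sema3G. Mrpl33, another short bacterial homologue, had 101 and 85.1 CPM against 80.6, 72.2 and 68.7 CPM. The Sema3G libraries lay below the PBS libraries for Mrpl52 and Mrpl33, whereas for Mrpl34 Sema3G library 1 lay between the PBS libraries. Mrpl24, which in bacteria has a role in early assembly of the large subunit, had 72.0 and 57.3 CPM with PBS and 45.6, 38.8 and 41.9 CPM with Sema3G. Mrps15, the most abundant small-subunit member, had 55.5 and 54.1 CPM against 48.9, 37.9 and 41.0 CPM. Again all Sema3G values were below all PBS values. At the other end, Mrps10 had 5 to 7 UMIs per library, Mrps28 had 3 to 10 and Mrpl48 had 4 to 9, so that counting error alone is large for them.

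The members fixed for their role spanned the middle of the range. Mrps12, at the decoding centre of the small subunit, had 29.1 and 33.7 CPM with PBS and 40.6, 31.1 and 30.4 CPM with Sema3G, and its groups overlapped. Mrps16, which is mutated in an inherited deficiency of the respiratory chain, had 38.5 and 36.9 CPM against 25.6, 23.9 and 21.2 CPM, without overlap. Mrps34, mutated in a form of Leigh syndrome, had 21.4 and 38.0 CPM with PBS and 18.9, 28.0 and 20.3 CPM with Sema3G. The PBS libraries of Mrps34 were farther apart than the group means. In the large subunit, Mrpl12, the stalk protein that recruits translation factors, had 42.9 and 30.5 CPM with PBS and 39.5, 20.8 and 22.1 CPM with Sema3G. Mrpl3, whose bacterial homologue lies close to the peptidyl transferase centre, had 23.1 and 19.8 CPM against 26.7, 13.1 and 12.4 CPM. For both genes Sema3G library 1 was at or above the lower PBS library and Sema3G libraries 2 and 3 stood below them. Mrpl45, which faces the inner membrane at the exit of the peptide tunnel, had 53.3 and 51.9 CPM with PBS and 42.8, 41.5 and 34.6 CPM with Sema3G, without overlap.

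The paralogues Mrps18a, Mrps18b and Mrps18c place proteins in different subunits, the first in the large and the others in the small subunit. Mrps18a had 23.6 and 21.9 CPM with PBS and 19.5, 18.5 and 15.7 CPM with Sema3G. Mrps18c had 29.1 and 21.4 CPM against 25.02, 23.9 and 13.8 CPM. The first did not overlap between groups and the second did, and Mrps18b was near 0 in all libraries. Mrps18c has a near-identical copy of its 3′ end elsewhere (Gm15946). Mrps30, a large-subunit protein despite its symbol, had 23.6 and 13.4 CPM with PBS and 23.9, 18.1 and 14.8 CPM with Sema3G, with overlap.

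The comparison of the groups asked how LPS-stimulated BMMs responded to Sema3G. No mitochondrial ribosomal protein gene passed the test in either direction, but most members sat lower in the Sema3G libraries, somewhat more than genes in general. In this bulk RNA, fewer cells of a type and less RNA per cell cannot be told apart. With limma on log2(CPM + 1) and Benjamini-Hochberg adjustment over all 10088 genes, 0 of the 74 tested members were called higher, where 1.59% of all genes were, and 0 were called lower, where 0.218% were. The smallest adjusted p of a member was 0.0767 (Mrps26, limma). On the recovered counts, edgeR (quasi-likelihood test, 69 members) and DESeq2 (70 members with an adjusted p) called 0 members as well. At an unadjusted limma p under 0.05, 20 members (27.0%) were lower, beside 14.2% of all genes, and 1 was higher, beside 6.83% of all genes. The log2 fold change was below 0 in 65 of the 74 (87.8%), beside 67.5% of all genes. The standard error of a member's log2 fold change was between 0.19 and 0.50, with a median of 0.29, so that differences of the size of the list's median were not detectable for single genes at this depth and number of libraries.

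The median log2 fold change of the members was −0.39 (quartiles −0.59 and −0.23), a fold of 0.766. Over all tested genes it was −0.22, a fold of 0.856, so the members' median lay 0.16 below it on the log2 scale. Relative to the median of all genes, 57 members (77.0%) were lower. The general shift moved with the scale, and the totals behind the deposited values include UMIs on no listed gene. With CPM rescaled to the UMIs on listed genes without Rn45s, the median of all genes was 0.042 and that of the members −0.12, and 51 members stayed below 0. With TMM-scaled CPM the medians were −0.038 and −0.20. The distance of the members from all genes was −0.16 on each of these scales, but −0.27 without Sema3G library 1. Of the calls over all genes, 22 of 182 were lower on the deposited scale, 2 of 498 on the listed-gene scale and 3 of 325 with TMM factors.

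**Figure D2:**
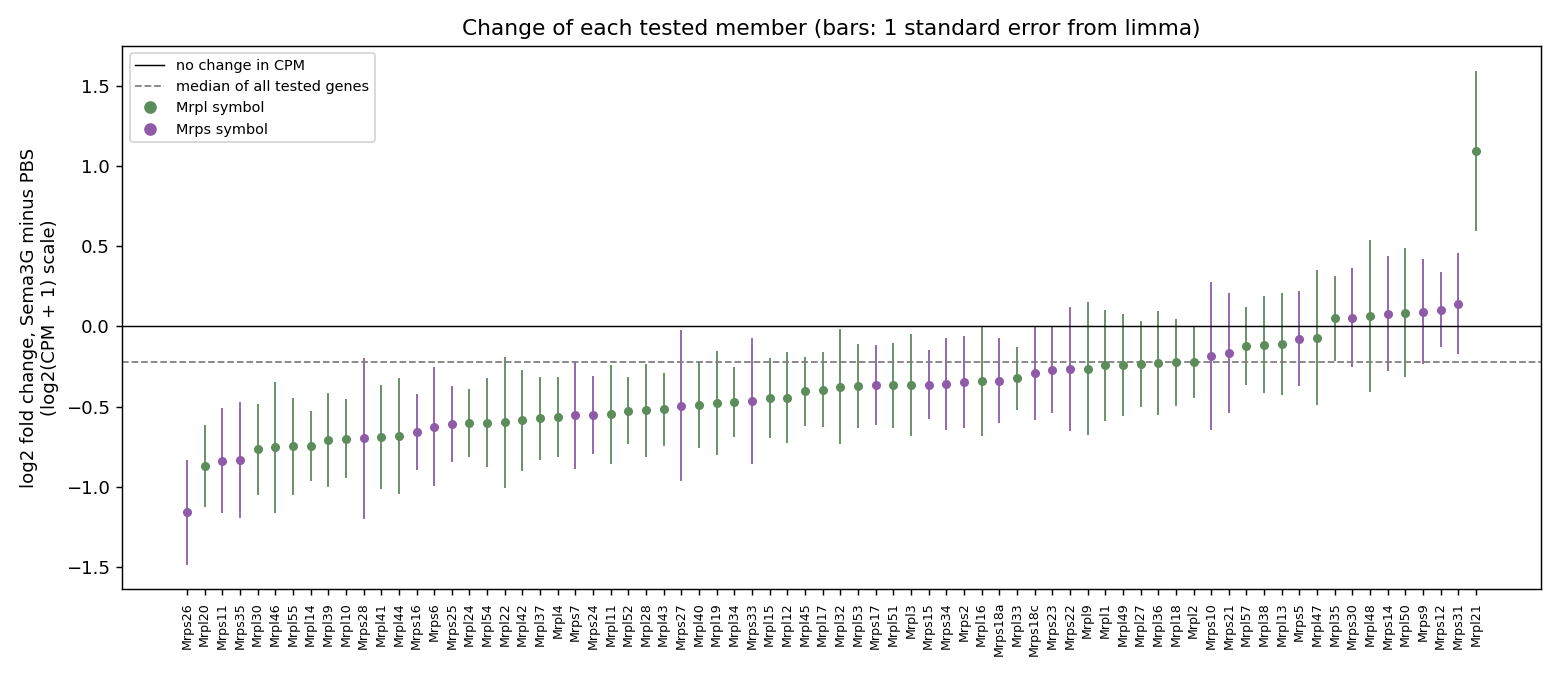
Log2 fold change of each tested member on the log2(CPM + 1) scale (y axis, Sema3G minus PBS; points with bars of 1 standard error from limma), ordered from lowest to highest (x axis) and coloured by symbol. The dashed line is the median of all tested genes, −0.22. Values run from −1.16 (Mrps26) to 1.09 (Mrpl21), and 57 of the 74 points lie below the dashed line.

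Counted library by library, 31 members had all 3 Sema3G values below both PBS values, 41.9% of the 74 beside 26.5% of all tested genes. The opposite order was seen in 1 member, beside 11.9% of all genes. These counts moved with the scale as well. With CPM rescaled to listed genes without Rn45s, 13 members were lower without overlap (10.5% of all genes) and 3 were higher (21.3%), namely Mrpl21, Mrps12 and Mrpl57. With each library centred on the median of the tested genes, 25 were lower (20% of all genes) and 1 was higher (15.1%). On each of the 3 scales the share of members lower without overlap was above that of all genes, and the share higher was below it.

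The sum over all 77 members showed the same order of libraries. It was 2213 and 1954 CPM with PBS and 1773, 1458 and 1378 CPM with Sema3G, or 2083 ± 183 CPM (SD, n = 2) against 1536 ± 209 CPM (SD, n = 3), a ratio of 0.737. As a share of the UMIs on listed genes, members took 0.285% and 0.259% with PBS and 0.248%, 0.217% and 0.209% with Sema3G (0.272 ± 0.0188% against 0.225 ± 0.0208%), a ratio of 0.827. Within each library the median level of the tested members was 0.32 and 0.35 above that of all tested genes with PBS (log2 scale), and 0.11, 0.02 and 0.06 above it with Sema3G. All 3 measures were lower in every Sema3G library than in either PBS library, and Sema3G library 1 was the nearest of the 3 to the PBS libraries on each. The sum and the share of the members fell in the order PBS 1, PBS 2, Sema3G 1, Sema3G 2 and Sema3G 3, so also within each group. The share of UMIs on no listed gene and the share of Rn45s rose in that same order of libraries. The median level did not follow this order within the groups. The part of these shares in the difference was not tested.

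**Figure D3:**
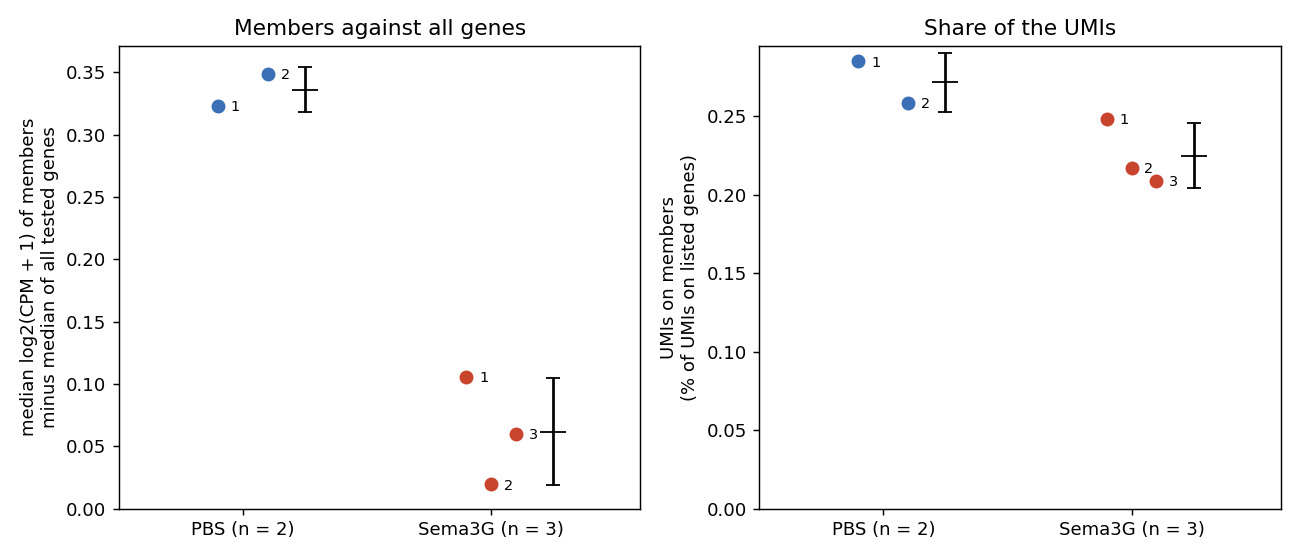
Left, median log2(CPM + 1) of the 74 tested members minus the median of all tested genes in the same library. Right, UMIs on the 77 members in percent of the UMIs on listed genes. Points are libraries with their replicate number, and the line and bars are the group mean ± SD (PBS n = 2, Sema3G n = 3). The PBS libraries lie at 0.32 and 0.35 (left) and the Sema3G libraries between 0.02 and 0.11.

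Sema3G library 1 stood apart from the other Sema3G libraries in these genes. It had the highest level of the 3 in 53 of the 74 members (71.6%, beside 50.2% of all genes), while library 2 was highest in 14 and library 3 in 7. PBS library 1 was above PBS library 2 in 51 members (68.9%, beside 60.6% of all genes). Without Sema3G library 1, 4 members were called lower, where 5.49% of all genes were (limma, adjusted p under 0.05). They were Mrpl20 (log2 fold change −1.13, adjusted p = 0.0113), Mrpl14 (−0.84, adjusted p = 0.0307), Mrpl52 (−0.70, adjusted p = 0.0321) and Mrpl34 (−0.67, adjusted p = 0.0447), all large-subunit members. A share of 4 in 74 is near that background. Without PBS library 2 the single member called lower was Mrpl54 (−1.10, adjusted p = 0.0483, limma), where 0.327% of all genes were. It had 57.7 CPM in PBS library 1 and 28.4 CPM in PBS library 2, beside 28.9, 27.1 and 23.5 CPM with Sema3G, so this call rests on 1 PBS library. With a replicate block, Mrps26, Mrpl20 and Mrpl14 were called lower, where 2.73% of all genes were. Replicate 3 has no PBS library, so this block leaves Sema3G library 3 out of the group difference. The log2 fold changes (−1.25, −0.66 and −0.75) equalled those without that library.

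Among members with a mean of at least 10 CPM and no overlap, 6 lay farthest below the median of all genes. None of the 6 passed the test. The first, Mrps26, is a mitochondria-specific protein of the small subunit (chr2:130563742-130568695, plus strand, mm10, GENCODE M21 gene model). It had 17.0 and 21.4 CPM with PBS and 6.12, 9.03 and 9.22 CPM with Sema3G, from 31, 40, 11, 20 and 20 UMIs. Its log2 fold change was −1.16 (standard error 0.33, adjusted p = 0.0767 from limma and 0.122 from edgeR), and its values in the Sema3G libraries were all below 10 CPM. An exon of 4930473A02Rik overlaps Mrps26 on the other strand, outside its last 500 bases. Mrps11, a bacterial homologue of the small subunit (chr7:78783119-78792989, plus strand), had 14.8 and 13.4 CPM with PBS and 7.78, 7.67 and 6.91 CPM with Sema3G. The groups were tight, but the counts were 14 to 27 UMIs, and the log2 fold change of −0.84 (standard error 0.33) had an adjusted p of 0.165 (limma). Mrps11 starts head to head with another member, Mrpl46, an exon of which overlaps it on the other strand. Mrpl46 had 17.6 and 10.7 CPM with PBS and 15.01, 4.96 and 5.99 CPM with Sema3G, and its groups overlapped.

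In the large subunit, Mrpl20, the homologue of a bacterial protein needed for early assembly (chr4:155802878-155809975, plus strand), had 63.2 and 78.2 CPM with PBS. With Sema3G it had 55.6, 35.2 and 28.1 CPM, and the log2 fold change was −0.87 (standard error 0.26, adjusted p = 0.0884 from limma and 0.161 from edgeR). Here too Sema3G library 1 was the closest to the PBS libraries. Mrpl14 (chr17:45686322-45698495, plus strand) is the protein on which the assembly factor Malsu1 docks, and had 55.5 and 62.6 CPM with PBS and 39.5, 30.2 and 35.0 CPM with Sema3G. Its log2 fold change was −0.75 (standard error 0.22, adjusted p = 0.0875 from limma and 0.157 from edgeR), and an exon of Tmem63b overlaps it on the other strand, outside its last 500 bases. Mrpl30 (chr1:37890477-37898535, plus strand) had 39.6 and 26.2 CPM against 15.6, 25.3 and 16.1 CPM, and its log2 fold change was −0.77 (standard error 0.28, adjusted p = 0.146, limma), but −0.48 without PBS library 1. The gap between its groups was small, 26.2 against 25.3 CPM, and near-identical copies of its 3′ end exist in Gm11945 and Gm6238. Mrpl55 (chr11:59202486-59206134, plus strand) had 20.9 and 17.7 CPM with PBS and 13.3, 9.48 and 10.6 CPM with Sema3G, and its log2 fold change was −0.75 (standard error 0.30, adjusted p = 0.175, limma). On the listed-gene scale without Rn45s the log2 fold changes of Mrpl14, Mrpl30 and Mrpl55 were −0.47, −0.49 and −0.49.

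On the other side of the median of all genes, a single member at this level had groups that did not overlap. Mrpl2, whose bacterial homologue is part of the peptidyl transferase region (chr17:46646229-46650139, plus strand), had 38.5 CPM in both PBS libraries and 31.7, 37.5 and 30.0 CPM with Sema3G. Its log2 fold change was −0.22 (standard error 0.23, adjusted p = 0.581, limma), within 0.004 of the median of all genes, and turned to 0.0628 on the listed-gene scale without Rn45s. Among the 74 tested members, the only one with all Sema3G values above both PBS values was Mrpl21, chosen here after its values were seen. PBS libraries 1 and 2 held 5 and 1 of its UMIs, beside 6, 10 and 10 in those with Sema3G, and its log2 fold change was 1.09 (standard error 0.50, adjusted p = 0.221, limma). The value was 0.45 without PBS library 2 and 1.74 without PBS library 1, and also moved with the pseudocount. It starts head to head with Ighmbp2, which overlaps it on the other strand.

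The members were placed by subunit and by whether the protein has a bacterial counterpart. In the large subunit the 29 tested bacterial homologues had a median log2 fold change of −0.39, 0.17 below that of all genes, and the 20 tested mitochondria-specific proteins one of −0.45, 0.22 below. In the small subunit the medians were −0.35 for 16 bacterial homologues and −0.46 for 9 mitochondria-specific proteins, which is 0.13 and 0.24 below all genes. The Sema3G libraries were all below the PBS libraries for 13 of 29, 8 of 20, 6 of 16 and 4 of 9 genes in the same order, beside 26.5% of all tested genes. On the listed-gene scale without Rn45s, the count over all members was 13 in place of 31, beside 10.5% of all genes. The 4 medians thus lay close to each other, and the differences between them were not tested. Their median levels were 21.4, 22.3, 15.5 and 12.6 CPM, so the small-subunit lists were at or below the general median of 16.9 CPM. By symbol, the 47 tested Mrpl genes had a median of −0.44 and the 27 tested Mrps genes one of −0.36.

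The promoter letters were set beside the changes. The 24 tested members with an ETS core had a median 0.13 below that of all genes, and the 41 without it a median 0.22 below. For the 12 with a YY1 core it was 0.21 below, against 0.14 below for the 53 without, and for the 7 with an NRF1 core 0.17 below, against 0.14 below for the 58 without. The medians with and without each core thus lay below that of all genes. Single members with an ETS or YY1 core lay on both sides of it. Differences between these medians were not tested.

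Proteins of the same ribosome that carry other symbols showed the same side of the median. Of the 6 tested, all lay below the median of all genes, with a list median 0.48 below it, and limma called 1 lower, where 0.218% of all genes were. This was Chchd1, a mitochondria-specific protein of the small subunit (chr14:20703006-20704425, plus strand), with 80.2 and 80.3 CPM in the PBS libraries and 58.9, 32.0 and 30.9 CPM in the Sema3G libraries. It fell from 80.3 ± 0.0600 CPM (SD, n = 2) to 40.6 ± 15.9 CPM (SD, n = 3), which on the log2 scale is −1.03 with a standard error of 0.25 (adjusted p = 0.0459, limma). The call was lost in 12 of 15 alternative settings, among them edgeR's quasi-likelihood test (adjusted p = 0.0701), with log2 fold changes from −1.32 to −0.75 and adjusted p values from 0.00247 to 0.262. Gadd45gip1, a large-subunit protein also called CRIF1, had 30.2 and 25.2 CPM with PBS and 18.9, 14.4 and 13.8 CPM with Sema3G, without passing the test (adjusted p = 0.129, limma). Ict1, the hydrolase that frees stalled mitochondrial ribosomes, had 19.2 and 16.6 CPM against 8.90, 11.7 and 12.4 CPM (adjusted p = 0.222, limma). Dap3, the GTP-binding protein of the small subunit, had 27.5 and 21.9 CPM with PBS and 22.8, 19.4 and 18.4 CPM with Sema3G, with overlap.

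The factors that work on this ribosome had medians on the other side of that of all genes. The 14 tested translation factors had a median 0.17 above it. By limma 0 were called in either direction (at an unadjusted p under 0.05, 1 was higher and 1 lower, beside 6.83% and 14.2% of all genes), and by edgeR and DESeq2 also 0. The smallest adjusted p was 0.0702 (limma). That value belonged to Lrpprc, which protects mitochondrial messenger RNAs and had 102 and 77.1 CPM with PBS and 56.2, 54.2 and 47.0 CPM with Sema3G. Tufm, the mitochondrial elongation factor that brings aminoacyl-tRNA, had 15 and 7 UMIs against 4, 9 and 7. Without overlap, 2 translation factors were lower and 3 higher, beside 26.5% and 11.9% of all genes. The 3 were Guf1, the initiation factor Mtif2 and Gfm2, which takes part in ribosome recycling and had 4.94 and 4.82 CPM with PBS and 10.01, 8.12 and 10.6 CPM with Sema3G. None of the 3 passed the test. The 21 tested genes for assembly of the ribosome and modification of its RNA had a median 0.04 above that of all genes. By limma, edgeR and DESeq2 0 were called. At an unadjusted limma p under 0.05, 1 was lower, beside 14.2% of all genes. Of these 21 genes 85.7% had a log2 fold change below 0, beside 67.5% of all genes. Without overlap 6 were lower (28.6%) and 1 higher (4.76%), beside 26.5% and 11.9% of all genes. Among 10 tested transcription regulators of mitochondrial genes the median was 0.35 above, with 0 called by limma (at an unadjusted p under 0.05, 1 was higher and 1 lower, beside 6.83% and 14.2% of all genes). Of these, 2 were lower without overlap (20%) and 3 higher (30%), beside 26.5% and 11.9% of all genes. Nrf1, lower without overlap, had 19.2 and 20.3 CPM with PBS and 15.01, 16.2 and 17.1 CPM with Sema3G. Gabpa, the DNA-binding subunit of GABP, had 11 and 9 UMIs against 15, 17 and 19, and Tfam, which packages mitochondrial DNA, had 14 and 17 UMIs against 16, 28 and 25. The regulator with the smallest adjusted p was Yy1, at 50.0 and 36.9 CPM with PBS and 62.8, 73.1 and 97.7 CPM with Sema3G. Its adjusted p was 0.0736 from limma and 0.0217 from edgeR, and Yy1 was the single regulator called higher by edgeR (4.05% of all genes) and by DESeq2 (2.76%).

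Gene sets with neighbouring functions lay on the same side as the members. The 73 tested cytosolic ribosomal protein genes had a median 0.29 below that of all genes, with 0 called by limma (at an unadjusted p under 0.05, 35 were lower and 1 higher, beside 14.2% and 6.83% of all genes), edgeR or DESeq2, and 37 lower without overlap (50.7%, beside 26.5% of all genes). The 85 tested nuclear genes of the respiratory chain had a median 0.23 below, with 2 called lower by limma (Cox5b and Uqcrc1, named after their values were seen), 1 by edgeR (Uqcrc1, where 0.0491% of all genes were) and 0 by DESeq2, and 34 lower without overlap (40.0%). Over all genes limma called 0.218% lower, and 26.5% were lower without overlap. The members, at 0.16 below and 41.9%, lay between these sets and genes in general by the median. Differences between the lists were not tested, because all lists are read from the same 5 libraries.

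**Figure D4:**
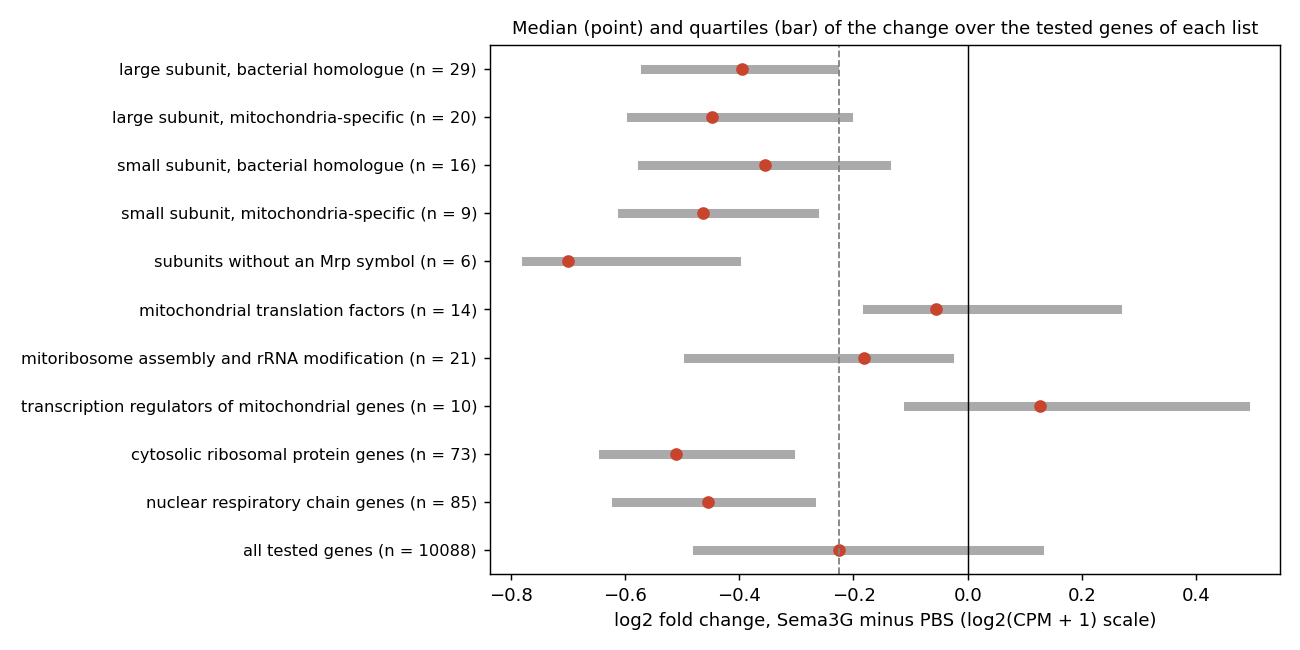
Median (point) and quartiles (bar) of the log2 fold change (x axis, Sema3G minus PBS, log2(CPM + 1) scale) over the tested genes of each list (y axis, with the number of genes). The dashed line is the median of all tested genes, −0.22. The 4 subunit lists lie at −0.46 to −0.35, and the subunits without an Mrp symbol at −0.70. The medians of the translation factors, assembly genes and transcription regulators lie to the right of the dashed line. For the assembly genes the distance is 0.04.

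All 77 members have a GENCODE M21 gene model on mm10, spread over 17 chromosomes, with a median transcript length of 1047 bases. Another coding gene starts head to head within 1000 bases of 33 members. An exon of a gene on the other strand overlaps 27 members and one on the same strand 8, and the sources used here do not state whether the counting used the strand. In 11 members another gene's exon lies within the last 500 bases, where reads of this kit fall. These are Mrpl10, Mrpl12, Mrpl19, Mrpl24, Mrpl49, Mrpl51, Mrpl53, Mrps7, Mrps18b, Mrps25 and Mrps34. A copy with at least 95% identity over at least 200 of the last 300 bases exists elsewhere for 7 members, namely Mrpl22, Mrpl23, Mrpl30, Mrpl48, Mrps10, Mrps18c and Mrps21. Their levels are uncertain for that reason. Counting error was also large for the 16 tested members with a mean under 20 UMIs per library.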

How the data were processed

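RNA 3′ ends were sequenced by the authors with a QuantSeq 3′ kit and UMIs, mapped to mm10, counted with Strand NGS, and normalized and tested with EdgeR (3.12 in the submitters' notes). The sources used here name no gene annotation or filter. The deposited values are CPM per gene and library. p- and q-value columns of the authors' own comparison were not used. All values were whole multiples of 1 step per library (100% within 0.01), which gave the UMI counts and totals. The floor of 3 counts covers counting error only, while standard errors and SDs describe the spread between libraries.

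In R 4.3.3, limma (3.58.1) fitted log2(CPM + 1) with a trend of variance on level, for 10088 genes whose mean over the libraries was 1 CPM or more. Tests were 2-sided, with Benjamini-Hochberg adjustment over all of them. A fold change on this scale understates that of low genes. edgeR (4.0.16) and DESeq2 (1.42.0) on the recovered counts were alternatives, as were other pseudocounts (0.1, 5), filters, scalings, a replicate block, and leaving out each library. On simulated data with 200 genes changed 4-fold, limma recovered 100% with 12 false calls among 10081 genes. For edgeR it was 100% with 13 among 8103, and for DESeq2 98.5% with 7 among 12363. The changed genes were drawn from those above the members' median level of 18.9 CPM. The simulated spread was a fixed value, not estimated from these libraries. Every tested member changed by less than 4-fold, so these shares do not describe the power for the members. Symbols that read as dates (27 rows) are not named.

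Fold changes are printed for the 6 members farthest above and below the median of all genes (mean of at least 10 CPM, groups not overlapping), and for called partners. Levels are printed for the 6 highest and 4 lowest members and for members fixed by role. Values of Mrpl54, Mrpl52, Mrpl34, Mrpl46, Mrpl21, Gadd45gip1, Ict1, Lrpprc, Gfm2, Guf1, Mtif2, Yy1, Cox5b and Uqcrc1 beyond this rule were added after they were seen. The members and lists were chosen with earlier results of these data known. Mrp63 is an older symbol of the member Mrpl57 and was not counted again. Mrm2, Mrm3 and Ly6g matched no row by symbol, and older symbols were not used. Non-overlap counts on other scales were added after seeing the data. Promoters are from RefSeq, gene models from GENCODE M21.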

Additional observations from a re-analysis of the deposited data

How the results depend on the processing

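No member was called higher in any of the 15 alternatives, and the number called lower was 0 in 12 of them. With the replicate block it was 3 (Mrps26, adjusted p = 0.0180; Mrpl20, adjusted p = 0.0407; Mrpl14, adjusted p = 0.0198; limma with 1 residual degree of freedom), and 275 of all genes were called lower there. Leaving out 1 library gave 0 to 4 members called lower, and where 1 PBS library was left it was assumed to vary like the others. The members' median minus that of all genes, −0.16, was −0.27 to −0.13 when 1 library was left out, at its lowest without Sema3G replicate 1 and −0.21 when PBS replicate 2 or Sema3G replicate 2 was left out. It was −0.20 to −0.13 under the other alternatives. Mrpl2 turned to 0.0628 with CPM rescaled to listed genes without Rn45s. The counts of members not overlapping, 31 lower and 1 higher, were 13 and 3 on that scale.

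Over all genes 182 were called, and 26 to 856 under the alternatives. Counts more than 1.5 times apart were 108 with no filter, 325 with TMM factors, 498 on the listed-gene scale without Rn45s, 334 with edgeR, 573 with the replicate block, and, with a library left out, 92 (PBS replicate 1), 856 (Sema3G replicate 1), 26 (Sema3G replicate 2) and 28 (Sema3G replicate 3). The replicate numbers are not shown to pair the libraries: deviations from the group means correlated at 0.17 (PBS 1 with Sema3G 1) and 0.11 (PBS 2 with Sema3G 2), over 2 pairs only. Since replicate 3 has no PBS library, the replicate block compares replicates 1 and 2 only. Depth limits the 16 tested members with under 20 UMIs on average and the 3 members not tested.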
